A study of Homo sapiens with 4 samples.

Results

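The 7 genes described here encode TGFB ligands (TGFB1, TGFB2, TGFB3), inhibin and activin beta subunits (INHBA, INHBB, INHBE) and PMEPA1, a membrane protein induced by TGFB. They were taken by gene symbol, and all 7 were found among the 19775 genes of the deposited table. The cells were of the established line H1, human embryonic stem cells labelled wild type, and were kept in E8, a defined medium that itself supplies TGFβ protein together with FGF2 and insulin. The labels give 2 samples in E8 alone for 12 h and 2 samples in E8 with 1 µM XMD892 for 12 h; XMD892 is a small-molecule inhibitor of ERK5, a mitogen-activated protein kinase. Poly(A) RNA was sequenced as paired ends. Only the 2 XMD892 libraries could be tied to columns of the table. A further column named for XMD892 at 12 h matches no sample label and was not used. The columns of untreated cells carry a different culture time from the untreated samples' labels, so the 2 E8 samples were not analysed here and the effect of XMD892 on these genes was not measured. Everything below is a level in treated cells or a gap between the 2 treated libraries. All values come from a single cell line, and no label ties the libraries to separate cultures, so their spread may be technical.

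TGFB ligands are made as large precursors that are cleaved by furin-type proteases and stay bound to their own propeptide, often tethered to latent TGFB binding proteins, until integrins or proteases release them. Inhibin beta subunits pair with each other to form activins, or with the alpha subunit INHA to form inhibins, which oppose activins. TGFBs and activins signal through different receptor pairs to the same transcription factors, SMAD2 and SMAD3. In primed human pluripotent cells this branch is known to sustain NANOG transcription, which is why defined media contain TGFβ or activin. PMEPA1 is a SMAD-induced protein that binds SMAD2 and SMAD3 and dampens the pathway, so it is commonly read as a target gene.

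The stretches of 120 bases before the annotated starts of the 3 TGFB genes are printed here as a description. TGFB1 was found at a higher transcript level than its close relatives TGFB2 and TGFB3, and its upstream bases differ from the stretches shown for those 2 genes. Whether level and upstream bases are linked was not tested. The stretches are from RefSeq on GRCh38.p14, written 5′ to 3′ on the gene's strand. Capitals mark the TATA box (TATAAA), the GC box (GGGCGG) and the core of the cAMP response element (TGACGT), each on either strand.
TGFB1, chr19:41353923-41354042, minus strand: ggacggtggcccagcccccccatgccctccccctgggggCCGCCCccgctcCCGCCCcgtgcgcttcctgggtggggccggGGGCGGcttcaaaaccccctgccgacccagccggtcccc
TGFB2, chr1:218345216-218345335, plus strand: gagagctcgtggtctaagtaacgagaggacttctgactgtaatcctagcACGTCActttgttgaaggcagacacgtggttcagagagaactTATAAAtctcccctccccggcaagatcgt
TGFB3, chr14:75981996-75982115, minus strand, the inner of its 2 RefSeq starts: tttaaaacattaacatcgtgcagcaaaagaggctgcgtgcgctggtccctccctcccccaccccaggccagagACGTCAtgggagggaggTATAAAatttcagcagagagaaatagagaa

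RefSeq promoter entries were matched for 6 of the 7 genes; INHBE had no entry. TGFB2 and the inner TGFB3 start shared the same layout, with TATAAA beginning 29 and 30 bases before the start and ACGTCA beginning 71 and 47 bases before it. The outer TGFB3 start held neither motif in its upstream bases and had a GC content of 54.8%, and the table does not show which TGFB3 start these cells used. In the 250 bases upstream, TATAAA was present in 10.7% of 35116 RefSeq promoters and TGACGT in 7.10%. TGFB1 held neither of these in its 250 upstream bases. It held GC boxes, as did 42.6% of promoters, and its upstream GC content was 76.8% against 50.4% for TGFB2, 49.2% for the inner TGFB3 start and a median of 58.0% over all entries. INHBB also held GC boxes and was the most GC-rich of the 6 at 89.6%, yet its mean transcript level was lower than that of TGFB1. INHBA, at 42.8%, had TATAAA beginning 11 bases before its RefSeq start. The full cAMP response element TGACGTCA (1.65% of promoters), the AP-1 site TGANTCA (6.57%) and the palindromic SMAD site GTCTAGAC (0.182%) were found upstream of none of the 6 genes. The search covered both strands, matches of 1 motif were allowed to overlap, and TGACGT is part of TGACGTCA. A match is a description of the letters and not a bound site.

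In the treated cells TGFB1 was the main transcript among the 6 ligand genes, PMEPA1 was higher still, and the other 5 ligand genes were at or below 0.537 RPKM in each library. Levels are given as RPKM, reads per kilobase of merged exons scaled to the total of each library, so that genes can be compared with each other. That total is the sum of the gene counts over the listed genes, 18528689 in replicate 1 and 20217648 in replicate 2, and not all reads sequenced. A level of at least 1 RPKM in both libraries was reached by 2 of the 7 genes, against 59.6% of the 19262 genes with a length. The median of all these genes was 2.31 RPKM and the median of the 6 ligand genes was 0.250 RPKM. Here and below, all genes means genes listed in the table, of which 19530 and 19561 of 19775 had a read. Genes that the table leaves out, such as ITGB6 and DCN, are not counted, so a percentile is not a rank over the whole genome. What is called a counting interval below is an exact 95% interval for counting error alone; reads without molecular identifiers are not independent molecules.

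TGFB1 encodes the ligand most widely used in defined stem cell media and spans chr19:41301587-41353911, minus strand (GENCODE release 29, GRCh38). It had 200 reads in replicate 1 and 188 in replicate 2, or 3.33 and 2.87 RPKM. The mean was 3.10 ± 0.327 RPKM (SD, n = 2), at percentile 55.2 of all genes. The counting intervals, 2.89 to 3.83 and 2.48 to 3.31 RPKM, overlapped. Of its merged exon bases 6.64% are shared with HNRNPUL1, a highly expressed gene on the opposite strand with 7388 and 7110 reads. Whether the counting used strand is not given in the sources used here, so reads from this overlap cannot be assigned with certainty.

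TGFB2 and TGFB3, ligands known for roles in heart, palate and neural development, were far below TGFB1 in RPKM in both libraries. TGFB2 (chr1:218346235-218444619, plus strand) had 23 and 33 reads, or 0.241 and 0.317 RPKM. Its mean was 0.279 ± 0.0537 RPKM (SD, n = 2), at percentile 19.3 of all genes. The annotated transcript TGFB2-OT1, which is not listed in the table, covers 26.6% of its exon bases on the same strand. TGFB3 (chr14:75958099-75982991, minus strand) had 23 and 19 reads, or 0.253 and 0.191 RPKM. Its mean was 0.222 ± 0.0434 RPKM (SD, n = 2), at percentile 16.5. The libraries of TGFB2 and TGFB3 overlapped, so no order between them can be drawn. Scaled by the longest transcript instead of the merged exons, TGFB3 stood at 0.403 and TGFB2 at 0.284 RPKM, which turned their order. Of the summed RPKM of the 3 TGFB genes, TGFB1 made up 87.1% in replicate 1 and 85.0% in replicate 2.

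The inhibin subunit genes were low as a group, with a summed level of 0.800 RPKM in replicate 1 and 0.513 in replicate 2. INHBE, whose product is best known as a liver-secreted hepatokine, was the highest of them. The gene (chr12:57452323-57459280, plus strand) had 30 and 23 reads, or 0.537 and 0.377 RPKM. Its mean was 0.457 ± 0.113 RPKM (SD, n = 2), and it made up 67.1% and 73.6% of the summed RPKM of the 3 subunit genes. In both libraries INHBE was above TGFB2, but the counting intervals of the 2 genes overlapped in at least 1 library.

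INHBB (chr2:120346143-120351808, plus strand), the subunit of activin B, had 11 and 8 reads, or 0.185 and 0.123 RPKM, with a mean of 0.154 ± 0.0437 RPKM (SD, n = 2). INHBA (chr7:41667168-41705834, minus strand) encodes the subunit of activin A, the ligand used to drive stem cells towards endoderm. It had 12 reads in replicate 1 and 2 in replicate 2, or 0.0780 and 0.0119 RPKM. INHBA was the lowest of the 7 genes, at percentile 3.42 of all genes, with a mean of 0.0450 ± 0.0467 RPKM (SD, n = 2), an SD as large as the mean. The counting interval of its level in replicate 2 ran from 0.00144 to 0.0430 RPKM. The partner subunit INHA stood at 0.349 ± 0.145 RPKM on 8 and 16 reads. INHBC, the paralogue that lies beside INHBE, stood at 0.0892 ± 0.0495 RPKM on 2 and 5 reads.

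PMEPA1 (chr20:57648392-57711536, minus strand) has 4 RefSeq start sites. It had 681 reads in replicate 1 and 447 in replicate 2, or 6.54 and 3.93 RPKM. The mean was 5.24 ± 1.84 RPKM (SD, n = 2), at percentile 65.0 of all genes. Both of its libraries lay above both of TGFB1's, and its level was 1.41 times the summed level of the 6 ligand genes in replicate 1 and 1.01 times in replicate 2. The SMAD-binding letters CAGAC occurred upstream of 2 of the 4 starts, on the gene's strand, beginning 71 and 115 bases before them; 38.0% of all promoters hold this motif on either strand. The motif also occurred upstream of TGFB2, beginning 53 and 243 bases before its start, and of the outer TGFB3 start, 133 and 245 bases before it. LDLRAD4, its closest relative and also an inhibitor of SMAD2 and SMAD3 activation, stood at 0.107 ± 0.0326 RPKM on 26 and 44 reads. The antisense transcript NKILA shares 6.10% of PMEPA1's exon bases and had 39 and 81 reads, higher in replicate 2 where PMEPA1 was lower. Without a stated strand setting, reads in the shared bases cannot be told apart.

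**Figure D1:**
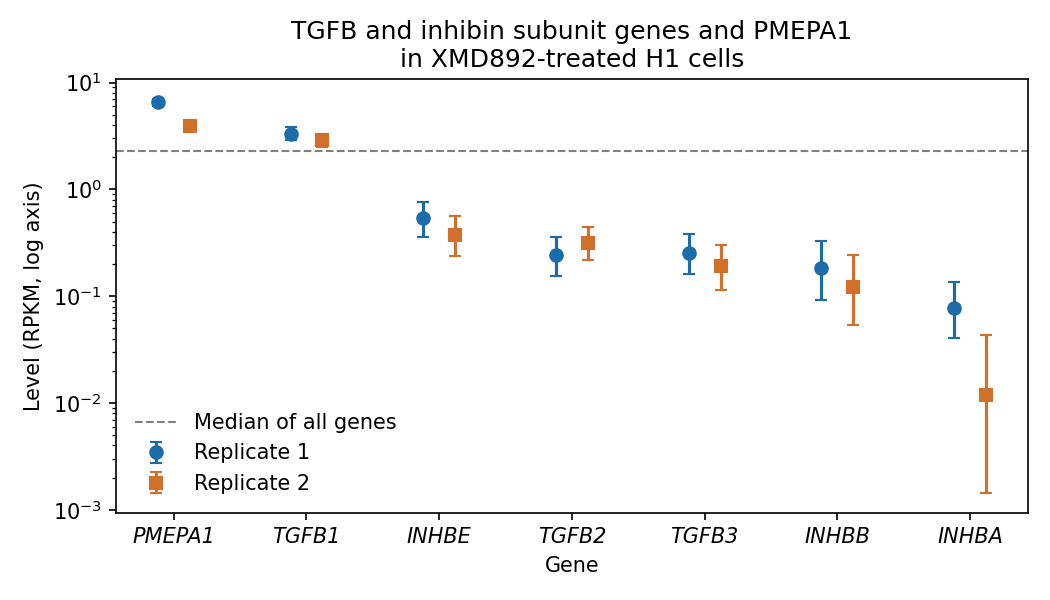
Level of each of the 7 genes (RPKM, log axis) in XMD892 replicate 1 (circles) and replicate 2 (squares), with exact 95% intervals of counting error; the dashed line is the median of all genes, 2.31 RPKM. PMEPA1 and TGFB1 lie above that line in both libraries and the other 5 genes below it.

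The full order by mean RPKM was PMEPA1, TGFB1, INHBE, TGFB2, TGFB3, INHBB and INHBA. The steps from PMEPA1 to TGFB1 (1.69-fold) and from TGFB1 to INHBE (6.79-fold) had no overlap of the libraries. Only at these steps were the counting intervals also apart within each library. From INHBE downward, neighbours in the order had overlapping counting intervals in at least 1 library.

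The place of these ligands among all TGFB superfamily ligands is shown by the plot of superfamily levels. Of 33 superfamily ligand genes, 25 were in the table and 6 of these reached 1 RPKM in both libraries, against 59.6% of all genes. TGFB1 had the lowest mean of those 6, after GDF3, BMP7, NODAL, LEFTY1 and GDF11. In replicate 1 LEFTY1 was lower, at 2.54 RPKM against 3.33 for TGFB1. GDF11, a ligand that shares the activin type receptors, was nearest at 3.46 ± 0.276 RPKM, with 3.65 and 3.26 RPKM in the libraries against 3.33 and 2.87 for TGFB1, so their libraries overlapped. TGFB1 made up 9.13% of the summed superfamily RPKM in replicate 1 and 6.43% in replicate 2. INHBE ranked 13, TGFB2 16, TGFB3 18, INHBB 19 and INHBA 24 of the 25.

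**Figure D2:**
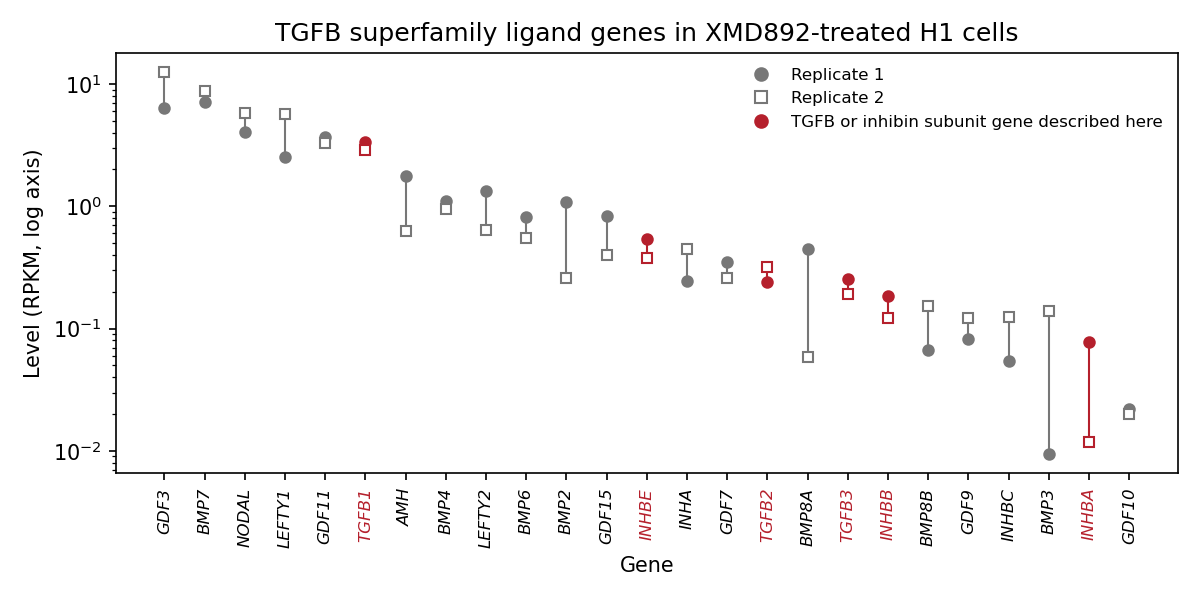
Level (RPKM, log axis) of the 25 listed TGFB superfamily ligand genes in XMD892 replicate 1 (filled circles) and replicate 2 (open squares), ordered by mean, with the 6 TGFB and inhibin subunit genes in red. TGFB1 ranks 6 and INHBA ranks 24.

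The gap between the 2 treated libraries was small for TGFB1 and not resolvable for most of the others at this depth. It is given as log2(normalized count + 1) in replicate 2 minus replicate 1, a scale that understates the gap of low genes; with 1 library on each side there is no test. In normalized counts TGFB1 stood at 215 and 198, a log2 difference of -0.11 with a counting interval of -0.41 to 0.18. TGFB2, the only one of the 7 that was higher in replicate 2, stood at 24.7 and 34.8, a difference of 0.48 (-0.32 to 1.33). TGFB3 had a difference of -0.29 (-1.26 to 0.64), INHBE of -0.39 (-1.26 to 0.42) and INHBB of -0.44 (-2.00 to 0.96). These 5 intervals include equal levels, and for TGFB2, TGFB3, INHBB and INHBE they also reach beyond a 2-fold gap.

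PMEPA1 stood at 731 normalized counts in replicate 1 and 472 in replicate 2, and was 1.55-fold higher in replicate 1. Its log2 difference was -0.63 with a counting interval of -0.81 to -0.46. Gaps of any size beyond counting error are common between these libraries: the counting interval excluded equal levels for 58.1% of the 16148 genes that averaged 10 or more normalized counts. A gap as large as PMEPA1's was less common, as 76.0% of these genes had a smaller one. Among the 1331 genes with a mean within 1.2-fold of PMEPA1's, 88.3% had a smaller gap.

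INHBA had 12.9 and 2.11 normalized counts, and the ratio of replicate 1 to replicate 2 had a counting interval of 1.36 to 56.1. Among 929 genes with a mean within 1.2-fold of INHBA's, 41.1% were at least 2-fold apart and 91.6% had a smaller gap than INHBA. With a mean of 7.50 it lay under the minimum of 10 and is not among the genes counted above. The other 6 genes reached that minimum. None of these 6 was at least 2-fold apart, against 10.9% of all genes at the minimum; this count depends on depth and on 2 libraries, and nothing is read from it.

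**Figure D3:**
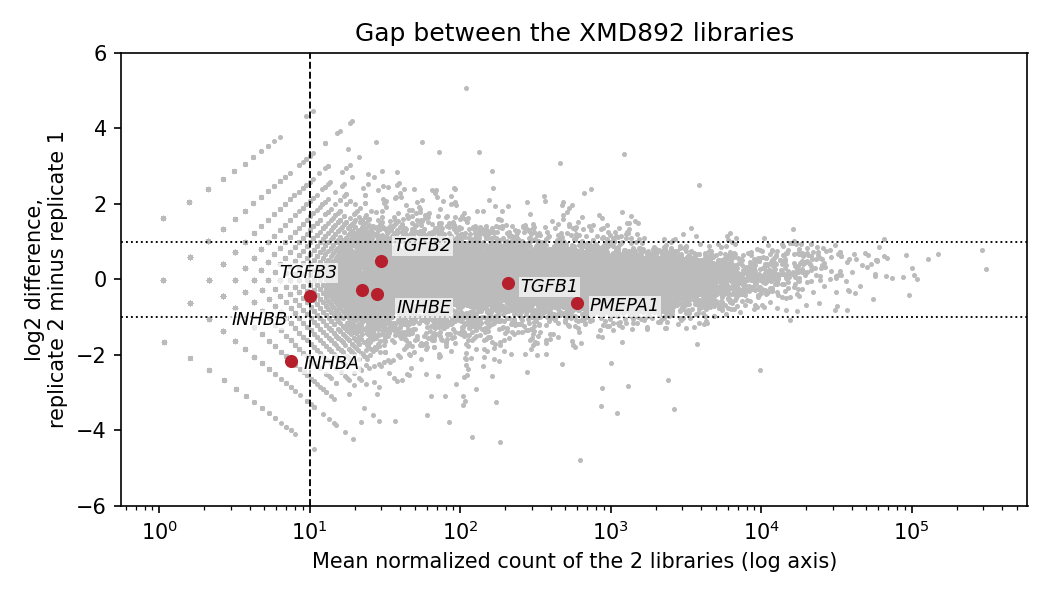
Each point is a gene, placed by its mean normalized count (log axis) and its log2 difference between the XMD892 libraries (replicate 2 minus replicate 1); dotted lines mark a 2-fold gap and the dashed line the minimum of 10, and the 7 genes are in red. The 6 genes to the right of the dashed line lie between -0.63 and 0.48, and INHBA lies to its left at -2.16.

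The machinery around the ligands was described from 5 lists with 84 different genes, of which 81 were in the table. Of 22 genes that hold or release latent TGFB, 20 were listed, 12 of them at 1 RPKM or more in each library, a share close to the 59.6% of all genes. The highest were ITGB1, the integrin beta-1 chain, at 76.4 ± 16.8 RPKM, ITGB5 at 40.4 ± 5.76 and the membrane protease MMP14 at 28.4 ± 2.84 RPKM (SD, n = 2). FURIN, the protease that cleaves the precursors, stood at 19.3 ± 5.28 RPKM. LTBP1, which tethers latent TGFB to the matrix, led the latent TGFB binding proteins at 13.1 ± 2.12 RPKM. The integrin chain ITGAV stood at 9.74 ± 0.200 RPKM, while ITGB8, its partner in releasing TGFB, was at 0.331 ± 0.232 and ITGB6 was not listed. The lowest was LRRC32 (GARP), which presents latent TGFB on regulatory T cells, at 0.142 ± 0.0906 RPKM.

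Receptor and SMAD genes had list medians of 2.77 and 7.13 RPKM, against 0.250 for the 6 ligand genes and 2.31 for all genes. Beside the counts that follow, 59.6% of all genes reached 1 RPKM in both libraries. Of 10 receptor genes, counting the decoy receptor BAMBI, 7 reached 1 RPKM in both libraries. The type I receptors TGFBR1 and ACVR1B stood at 14.1 ± 1.13 and 8.61 ± 0.566 RPKM, BAMBI at 9.38 ± 0.294 and the type II receptor TGFBR2 at 2.84 ± 0.399 RPKM (SD, n = 2). ACVR1C was the lowest at 0.112 ± 0.0249 RPKM. Of 18 SMADs and SMAD regulators, 17 reached 1 RPKM, led by the adaptor STRAP at 117 ± 5.96, the co-repressor TGIF2 at 25.0 ± 0.412 and the co-repressor SKI at 24.0 ± 9.53 RPKM. PMEPA1's relative LDLRAD4 was the remaining one. Of 12 other inhibin subunits and ligand-binding proteins 11 were listed and 6 reached 1 RPKM, led by FSTL1 at 59.6 ± 3.15, HTRA1 at 5.62 ± 2.02 and FSTL3 at 2.84 ± 0.277 RPKM. FST (follistatin), which sequesters activins, stood at 2.56 ± 0.539 RPKM, above each of the 3 activin subunit genes in both libraries.

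Between the libraries, the list of 26 genes known to respond to TGFB had 23 at the minimum count, of which 15 were higher in replicate 1 and 8 in replicate 2. The median log2 difference was -0.23, against 0.023 over all 16148 genes. A gap of at least 2-fold towards replicate 1 was seen for 3 of the 23, against 6.14% of all genes, and towards replicate 2 for 2, against 4.76%. TAGLN (transgelin) had 4515 and 423 reads, a 10.8-fold gap, and COL1A1, a fibrillar collagen chain, had 1429 and 196, a 7.39-fold gap. TPM1 (tropomyosin) had 5311 and 1658 reads. JUNB and LEFTY1 were the 2 genes at least 2-fold higher in replicate 2.

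Response genes that inhibit the pathway differed among themselves. SMAD7 had 982 and 1124 reads and SKIL had 2437 and 2491, log2 differences of 0.17 and 0.01, while PMEPA1 was at -0.63. LEFTY1 was 2.39-fold higher in replicate 2 and its near-copy LEFTY2 1.91-fold higher in replicate 1. These 4 were picked from the list after their values were seen. ID1 was the highest of the list at 47.1 ± 8.88 RPKM, and CDKN2B the lowest at 0.0188 ± 0.00783 RPKM, on only 1 and 2 reads. The other 4 lists had medians between 0.01 and 0.08. In the latency list, 12 of 20 genes leaned towards replicate 2 and the remaining 8 towards replicate 1. At least 2-fold apart were 3 of the 20, all higher in replicate 1, against 6.14% of all genes in that direction. They were THBS1, which can activate latent TGFB, ITGB8, and LRRC32, whose 17 and 7 reads gave a counting interval (-2.82 to 0.04) that includes equal levels.

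**Figure D4:**
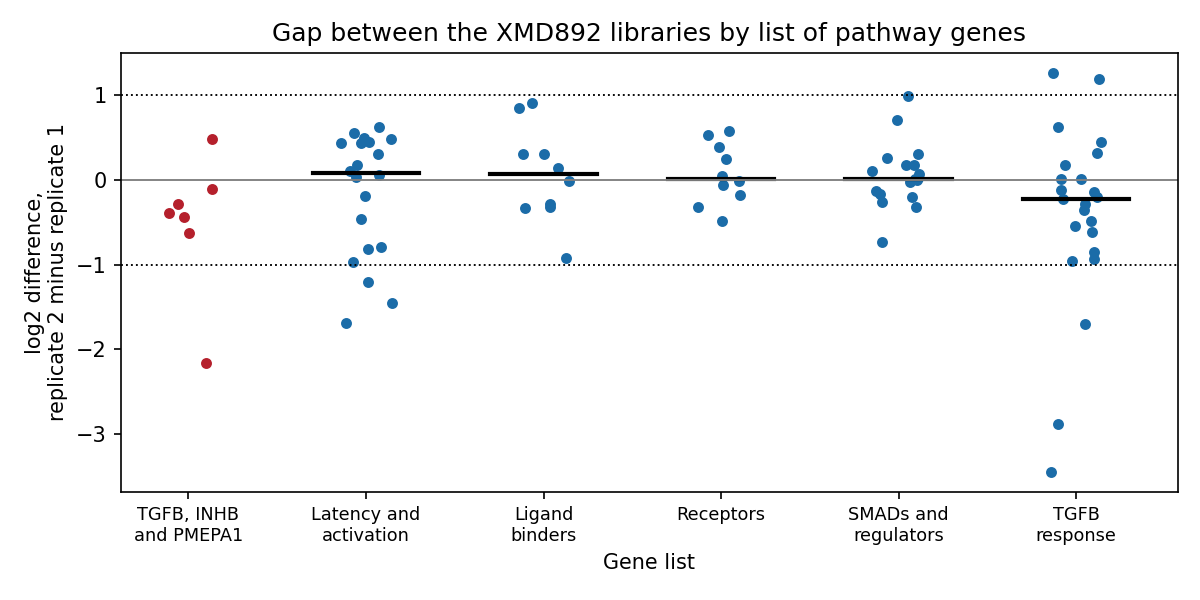
Log2 difference between the XMD892 libraries (replicate 2 minus replicate 1) for the 7 genes described here (red) and for the genes of 5 pathway lists that averaged 10 or more normalized counts (blue); black bars are list medians and dotted lines mark a 2-fold gap. In the TGFB response list TAGLN lies lowest at -3.44, followed by COL1A1 at -2.88.

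Markers of other cell types were read beside these gaps. Of 16 mesenchymal and fibroblast markers, 9 were listed and 7, among them DCN, LUM, TWIST1 and PRRX1, were not. The summed level of the 9 was 114 RPKM in replicate 1 and 76.4 in replicate 2, and 6 of the 8 at the minimum count were higher in replicate 1. The exceptions were THY1, with 3698 and 7685 reads, and COL6A3. TAGLN, with 62.2 and 5.34 RPKM, and THY1, with 33.7 and 64.2, weighed most in the sum and went opposite ways. Without TAGLN the other 8 markers summed to 51.5 RPKM in replicate 1 and 71.0 in replicate 2, most of it THY1. COL1A1 (7.85 and 0.987 RPKM), COL1A2 (6.01 and 3.84) and COL5A1 (3.45 and 1.65) were higher in replicate 1, as TAGLN was. The response list shares 5 genes with these markers, including TAGLN and COL1A1. The part of such cells in the gap of PMEPA1, INHBA or the response genes was not tested, and fewer cells of a type and less RNA per cell cannot be told apart in bulk RNA. All 8 pluripotency markers were above 1 RPKM in each library and their median was 129 RPKM, as the labelled cell type would have. POU5F1 was 2.09-fold higher in replicate 2, while DNMT3B was 1.62-fold and PODXL 1.59-fold higher in replicate 1. Only 2 of 7 endoderm, 4 of 8 amnion and trophoblast, and 2 of 6 endothelial and blood markers were listed. Of these listed markers 0 reached 1 RPKM in both libraries, against 59.6% of all genes, and nothing is known here of the unlisted ones. Of the 6 primitive streak and mesoderm markers with a level 1 did, the receptor KDR. All 5 primitive streak and mesoderm markers at the minimum count were higher in replicate 2. Their median log2 difference was 0.92, against 0.023 over all genes at the minimum. At least 2-fold higher in replicate 2 were 2 of the 5, against 4.76% of all genes: MIXL1 on 31 and 104 reads and GSC on 11 and 33. The streak markers T, on 8 and 9 reads, and EOMES, on 7 and 8, lay under the minimum, with differences of 0.13 and 0.15. Of the 6 neural markers 5 were listed, led by NES and SIX6, which early neural precursors also express; their summed level was 196 RPKM in replicate 1 and 122 in replicate 2. NES carried that sum, with 170 and 89.7 RPKM. The other 4 summed to 26.4 and 31.9 RPKM, most of it SIX6 at 23.4 and 30.4 RPKM. Of the 5 markers, 4 were higher in replicate 1, and SIX6 was higher in replicate 2. The part of these cells in the gaps was not tested either. TAGLN, THY1, NES and SIX6 were set apart after their values were seen.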

How the data were processed

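The authors deposited 1 table for the series, in which each value is a normalized signal: a gene count divided by 1 size factor per library, as the values themselves show. Per the submitters' processing notes, which give no roles, the authors used Trimmomatic 0.36, STAR, featureCounts 1.5.3 and DESeq2 1.26.0 with hg38. Of 9 per-library columns, 2 matched a sample's labels and 7 were not used. The 7 include the further column named for XMD892 at 12 h, so no spread or gap given here takes it into account. All values (100%, within 0.01 reads) were whole multiples of 1 step, which gave whole reads and size factors of 0.932 and 0.948.

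RPKM used merged exon lengths of GENCODE release 29 (19262 symbols with 1 gene ID). Differences used a pseudocount of 1 and a minimum mean normalized count of 10. Intervals are exact Poisson (levels) or binomial (ratios). Python 3.11.15, scipy 1.17.1 and edgeR 4.0.16 (TMM factors only) were used; the calculations were tested on simulated data. The planned edgeR test of XMD892 against E8 was not run. Genes were named by a rule: all 7 members, and from each list the 3 highest, the lowest, and those with a mean of at least 50 and a 4-fold gap. Others, with the superfamily list and the motifs, were chosen after their values were seen. An item of the response list is not reported here and was left out of its counts. The members and all lists were chosen with earlier results of these data known.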

Additional observations from a re-analysis of the deposited data

How the results depend on the processing

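No paired analysis was possible because no E8 column could be tied to a sample; for the same reason all alternatives planned for the comparison of XMD892 with E8 were not run. Of 21 levels of the 7 genes recomputed with both libraries, 19 moved by less than 1 SD. The 2 that moved further were those of TGFB1, at 3.63 RPKM, and TGFB3, at 0.403 RPKM, both with the longest transcript as the length. The SD rests on 2 libraries, so genes that differ more between them pass more easily. With the same length INHBA went from 0.0450 to 0.0616 RPKM and INHBE from 0.457 to 0.567. Both moves were larger in proportion than TGFB1's from 3.10, but within 1 SD. Leaving out 1 of 2 libraries moves any mean by the same share of its SD and so tests nothing; without replicate 1 or 2, INHBA stood at 0.0119 or 0.0780 RPKM and PMEPA1 at 3.93 or 6.54. All 28 recomputed gaps of the 7 genes, under total reads, TMM, quantile normalization or a pseudocount of 5, kept their direction and stayed inside their counting interval. A change of pseudocount cannot turn a direction, so that part tests nothing. The wide intervals of the low genes, such as -5.81 to -0.44 for INHBA, are also hard to leave. The largest move was INHBA, from -2.16 to -1.33 with a pseudocount of 5. Scaling by total reads put the median gap of all genes at -0.077 (log2) in place of 0.023. The number of genes at least 2-fold apart was 1761, and 3350 without a minimum count or 711 with a minimum of 50. Depth limits INHBA and INHBB most, with 2 to 12 reads per library.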

Other observations

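Other superfamily ligands differed more between the treated libraries than TGFB1 did. BMP2, a BMP ligand of early mesoderm, had 73 reads in replicate 1 and 19 in replicate 2, a 3.77-fold gap, and AMH, the anti-Müllerian hormone, had 85 and 33, a 2.57-fold gap. GDF3 had 145 and 313 reads, a 2.11-fold gap towards replicate 2, and LEFTY1 had 89 and 218, a 2.39-fold gap in the same direction. LEFTY2, a near-copy of LEFTY1 with uncertain read assignment, went the opposite way with 59 and 31 reads. These genes were picked after their values were seen, and each gap rests on 1 library per side with no test.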
